A study of Mus musculus with 69 samples.

Results

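The long noncoding RNA genes 1700030C10Rik, A930004D18Rik and Platr10 were followed across mouse embryonic stem (ES) cells and embryoid bodies that carried an EZH2 mutation or were kept in an EZH2 inhibitor. They are 3 of the 15924 genes with values in any of the 3 expression tables, and were found by name. 1700030C10Rik was chosen by its RPKM differences in these same libraries with loss or inhibition of EZH2, and Platr10 for its level in GSK343 at day 8. The values that chose A930004D18Rik were not stated, and its mutant and GSK343 differences were treated as used for the choice. Differences of the 3 genes between mutant and wild type, and between GSK343 and DMSO, are therefore given without a test, except for Platr10 outside that day 8 comparison. All 3 carry the RefSeq type lncRNA, as did 726 of the measured genes.

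The cells were of the line CJ7, mouse ES cells grown on a layer of feeder fibroblasts with LIF, a cytokine that keeps them undifferentiated. Embryoid bodies, in which ES cells form several tissues, were made in hanging drops. The groups with 3 libraries each were wild type and EZH2 mutant, as ES cells and as embryoid bodies of day 4 and day 8. The groups with 2 libraries each were DMSO and GSK343 at the same stages, where GSK343, an inhibitor of the enzyme EZH2, was present at 4 µM, starting 3 days ahead of differentiation, and DMSO was its solvent. In the replated groups, embryoid bodies formed in DMSO or in GSK343 were moved to ES cell medium for 5 days, again in DMSO or in GSK343, and are labelled day 14. There were 3 libraries of DMSO then DMSO, 3 of DMSO then GSK343, 3 of GSK343 then DMSO and 2 of GSK343 then GSK343, with a library 3 of the last group not analysed here. The labels give the mutant no allele or clone number. Its columns are headed mu99 in the deposited table, and were taken to be the samples labelled mutant. The labels do not say whether libraries of a group came from separate cultures, so that the spread between them may be technical.

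EZH2 is the enzyme of Polycomb repressive complex 2 (PRC2), which also needs SUZ12 and EED and places methyl groups on lysine 27 of histone H3 (H3K27me3), a mark of repressed genes. RING1B belongs to the second Polycomb complex, PRC1. Long noncoding RNAs are transcripts with no known protein product, and the Platr genes (pluripotency-associated transcripts) were named for their presence in ES cells. No established function is attributed here to 1700030C10Rik or A930004D18Rik.

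The promoters are printed because they differ in the base pair step CG, which is dense where PRC2 usually binds, and because 1 of the 3 genes lay under deposited Polycomb peaks. Each runs 5′ to 3′ on the gene's own strand, from 250 bases before to 50 after the start site, is taken from RefSeq (GRCm38.p6, the assembly that mm10 names), and has each CG in capitals. All 3 genes are on the minus strand. The windows are chr12:20815730-20816029 for 1700030C10Rik, chr2:18037692-18037991 for A930004D18Rik and chr3:75655682-75655981 for Platr10.
1700030C10Rik: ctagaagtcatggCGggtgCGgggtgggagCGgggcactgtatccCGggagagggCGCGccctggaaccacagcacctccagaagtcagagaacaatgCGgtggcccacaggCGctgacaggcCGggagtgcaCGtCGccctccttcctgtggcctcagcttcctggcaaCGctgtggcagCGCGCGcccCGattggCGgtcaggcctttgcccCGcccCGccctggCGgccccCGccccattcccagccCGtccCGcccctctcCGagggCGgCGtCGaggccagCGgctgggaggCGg
A930004D18Rik: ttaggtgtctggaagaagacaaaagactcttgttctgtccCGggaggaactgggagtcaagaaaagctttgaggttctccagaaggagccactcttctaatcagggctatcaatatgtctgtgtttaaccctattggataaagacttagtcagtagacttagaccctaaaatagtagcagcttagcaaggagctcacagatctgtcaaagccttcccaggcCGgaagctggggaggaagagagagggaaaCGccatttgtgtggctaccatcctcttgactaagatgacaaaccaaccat
Platr10: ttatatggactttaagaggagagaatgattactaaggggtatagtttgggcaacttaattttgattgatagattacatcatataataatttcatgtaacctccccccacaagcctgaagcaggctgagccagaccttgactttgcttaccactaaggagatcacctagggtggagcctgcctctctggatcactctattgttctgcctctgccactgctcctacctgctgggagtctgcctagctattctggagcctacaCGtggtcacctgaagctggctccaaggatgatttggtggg

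The 1700030C10Rik promoter held 29 CG and was 72.7% G or C, and 87.1% of the 32841 mouse promoters in the same set had fewer CG. The A930004D18Rik promoter held 3 CG (46.3% G or C) and that of Platr10 held 1 (47% G or C), with 23.3% and 5.42% of promoters below them, against a median of 7 CG. The motif GGGCGG, searched on both strands, matched at 5 places in the 1700030C10Rik window and at none in the others, and is held by 35.7% of all promoters. CCAAT matched once each in 1700030C10Rik and A930004D18Rik (37.4% of promoters) and TATAAA in none of the 3 (13.6% of promoters). CACGTG matched once in Platr10, starting 8 bases downstream of the start site (7.15% of promoters). These are matches of letters only.

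1700030C10Rik (gene ID 69513) spans chr12:20804389-20815779. Its nearest measured gene, Asap2, lay 296 kb from it. A930004D18Rik (gene ID 77940) spans chr2:18025187-18037741 and overlaps the lncRNA genes Gm17762 and Gm33085. Skida1 lay 6.35 kb and Mllt10, a cofactor of the histone methyltransferase DOT1L, 17.4 kb beyond its start site. Whether the counting used strand is not stated in these sources, so reads of A930004D18Rik and of the genes overlapping it may not be separable. Platr10 (gene ID 69193, also 2410007B07Rik) spans chr3:75647441-75655731, 4.92 kb from Serpini1, which encodes the protease inhibitor neuroserpin.

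A930004D18Rik lay under Polycomb peaks in the deposited CUT&RUN lists, which map a protein or histone mark with an antibody-tethered nuclease, and the other members did not. In the set merged over the wild-type stages, 1 H3K27me3 peak of 40.3 kb, chr2:18022799-18063143, covered all of A930004D18Rik and of Skida1 and the start of Mllt10. Of the 11884 peaks in that set 1.35% were wider, and the median width was 4.77 kb. A RING1B peak of 7.26 kb, chr2:18036411-18043673, covered the start site, and a merged SUZ12 peak, chr2:18026203-18034127, lay inside the gene. Within 1 kb of their span, 32.7% of the 15648 genes with a position had an H3K27me3 peak, 5.08% a RING1B peak and 2.89% a SUZ12 peak. All 3 were present at 2.02% of these genes and at 33 of the 726 lncRNA genes (4.55%). No merged EZH2 peak was nearer than 570 kb, in a set of 450 peaks.

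**Figure D1:**
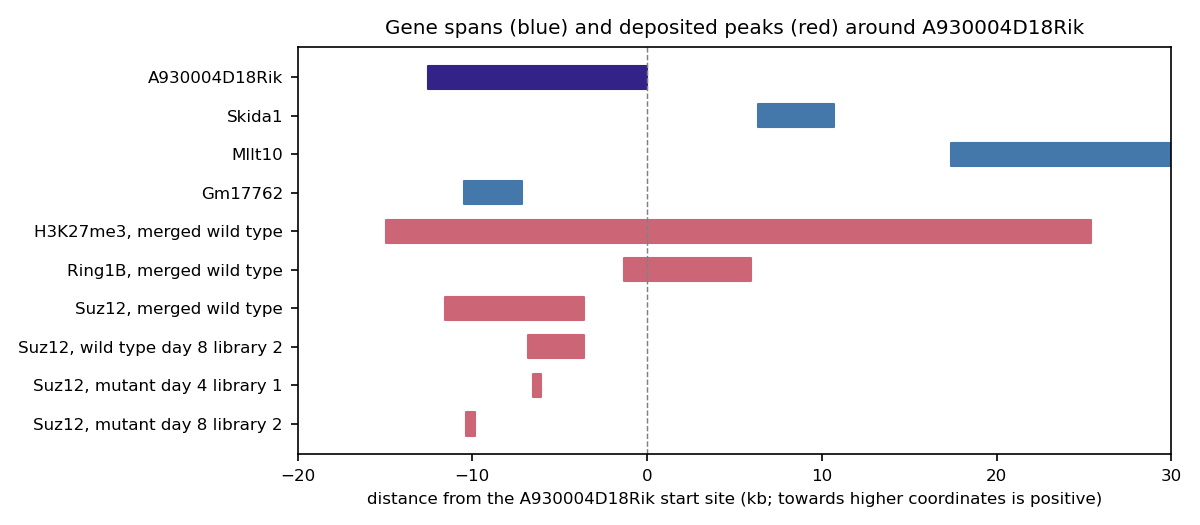
Gene spans (blue) and deposited peaks (red) by distance in kb from the A930004D18Rik start site, with positive distances towards Mllt10. The H3K27me3 peak of 40.3 kb spans A930004D18Rik, Skida1 and the start of Mllt10, and the RING1B peak lies over the start site.

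Single-library SUZ12 lists, of which 9 were deposited, had a peak inside A930004D18Rik in wild type day 8 library 2, mutant day 4 library 1 and mutant day 8 library 2, and in no ES cell list. In these 3 lists 20.8%, 14.2% and 18.9% of all genes had a peak in their span. These peaks were 3.17 kb wide in wild type and 0.501 kb in both mutant libraries. The lists differ in their median peak width, 1.001 kb in wild type and 0.501 kb in mutant, and their widths were not compared. The H3K27me3 peak nearest to 1700030C10Rik was 1627 kb away, and no list had a peak within 5 kb of it. Platr10 was 92.4 kb from the nearest H3K27me3 peak, and its one peak within 5 kb was a SUZ12 peak of wild-type ES cell library 2, 2.34 kb from the start. The authors' deposited PRC2_target call was YES for A930004D18Rik and NO for 1700030C10Rik and Platr10. That call was YES for 32.2% of the genes of the replating table, for 23.1% of its lncRNA genes and for 0 of its 9 Platr genes.

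Levels are RPKM, reads scaled to gene length and library size, compared within a table, since the tables were normalized separately. Reads recovered from these values totalled 5.01 to 22.0 M reads per library with DMSO or GSK343, 7.17 to 28.5 M reads with wild type or mutant and 2.27 to 8.34 M reads after replating. Counts for 1700030C10Rik and A930004D18Rik were low, down to 1 read in a library before replating. After replating, 1700030C10Rik and Platr10 had 0 reads in the DMSO then GSK343 libraries. The share of reads on the ribosomal RNA gene Rn45s ran from 4.08 to 57.9%, highest in wild type day 4 library 2. In every wild-type and mutant group library 2 had the highest share (18.3 to 57.9%) and library 3 the lowest (4.08 to 5.63%). The reported fits had no term for library number, which the replicate block given below adds. Ezh2 itself was at 49.1 RPKM in wild-type and 22.9 in mutant ES cells (log2 difference -1.04, adjusted p = 0.0372 by limma) and at 43.3 and 22.1 at day 8 (-0.95, adjusted p = 0.0185). At day 4 it was at 43.6 and 24.6 (-0.80, adjusted p = 0.168). The ES cell call was lost when any library but wild type library 3 was left out (adjusted p = 0.0763 to 0.205), the day 8 call without wild type library 1 or 2 or mutant library 2 (0.0586 to 0.104), and both with only the compared groups in the fit (0.365 and 0.167). Pou5f1, which encodes the pluripotency factor OCT4, was at 336 RPKM in wild-type and 563 in DMSO ES cells. Its means were 408 and 585 RPKM at day 4 and 92.8 and 57.7 RPKM at day 8. It therefore does not tell ES cells from day 4 embryoid bodies.

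1700030C10Rik was low in every control group and higher in every mutant library of the same stage. In ES cells it was at 0.814, 0.600 and 0.513 RPKM in the wild-type libraries and at 2.45, 2.66 and 2.85 RPKM in the mutant ones. At day 4 the wild-type values were 0.758, 0.169 and 0.506 RPKM, the lowest from 1 read, and the mutant values 3.45, 4.40 and 3.77 RPKM. Values at day 8 were 0.237, 0.347 and 0.185 RPKM for wild type against 1.46, 1.33 and 1.74 for mutant. The mutant and wild-type values did not overlap at any stage, which is how the gene was chosen. For scale, the libraries of the same comparison did not overlap for 13% of genes in ES cells, 9.24% at day 4 and 15.9% at day 8. On the log2(RPKM + 1) scale, which understates changes of low genes, the differences were 1.16 ± 0.16 (SE) in ES cells, 1.74 ± 0.16 at day 4 and 0.998 ± 0.16 at day 8. As ratios of mean RPKM they were 4.13, 8.11 and 5.90.

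With GSK343 the same gene stood apart at days 4 and 8 and not in ES cells. It was at 1.35 and 1.10 RPKM in DMSO ES cells and at 1.33 and 1.62 RPKM in GSK343 ES cells, which overlap. At day 4 the values were 1.48 and 1.24 RPKM in DMSO and 5.51 and 4.41 RPKM in GSK343, and at day 8 they were 0.318 and 0.397 RPKM in DMSO and 4.19 and 3.69 RPKM in GSK343. The log2 differences were 0.15 ± 0.15 (SE), 1.33 ± 0.15 and 1.86 ± 0.15, and the ratios of means 1.21, 3.65 and 11. GSK343 had been started 3 days before differentiation. In these comparisons the groups of 2 did not overlap for 32.1% of genes in ES cells, 43.6% at day 4 and 64.8% at day 8.

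Changes over time are given as means, without a test. In DMSO 1700030C10Rik went from a mean of 1.22 RPKM in ES cells to 1.36 at day 4 and 0.357 at day 8, and in GSK343 from 1.48 to 4.96 and 3.94. In the mutant it went from 2.65 to 3.87 and 1.51, and in wild type from 0.643 to 0.478 and 0.256. The highest mean was at day 4 in DMSO, GSK343 and mutant and in ES cells in wild type. In DMSO and in wild type the ES cell and day 4 libraries overlapped, so the order of those means is not resolved. Among lncRNA genes ranked by mean RPKM it was number 412 of 499 in DMSO and 102 of 499 in GSK343 at day 8.

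**Figure D2:**
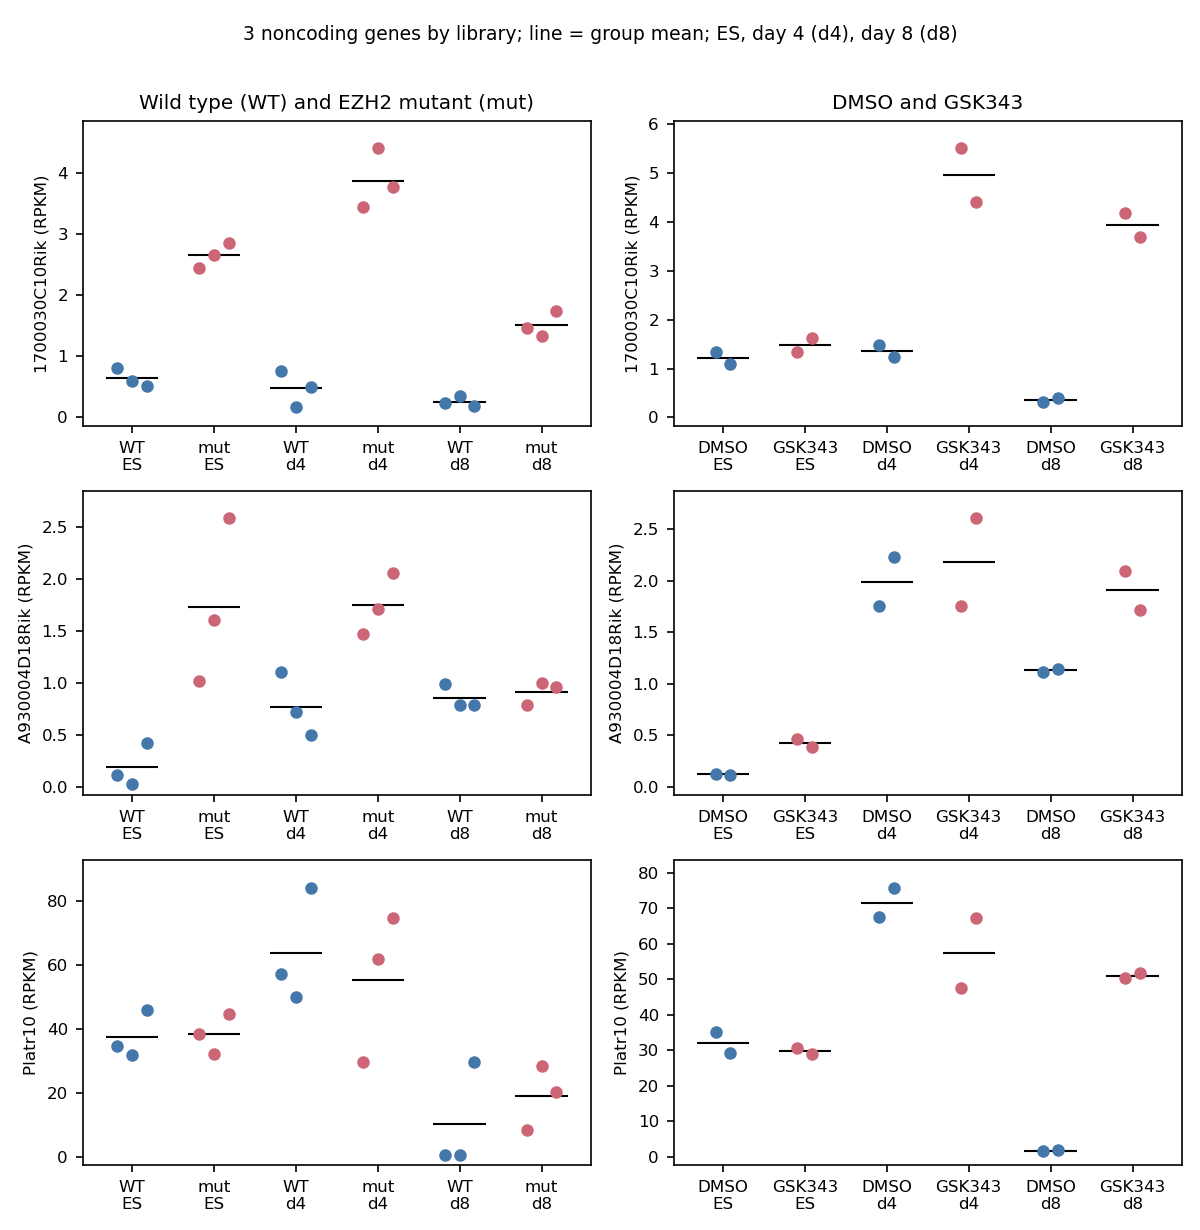
RPKM of 1700030C10Rik, A930004D18Rik and Platr10 (top to bottom) in each library (points) with the group mean (line). In 1700030C10Rik the mutant libraries sit above wild type at each stage, and Platr10 is at 50.3 and 51.6 RPKM in GSK343 at day 8 against 1.54 and 1.71 RPKM in DMSO.

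A930004D18Rik was near 0 in control ES cells and higher in mutant ES cells, and the gap was smaller at later stages. It was at 0.114, 0.0284 and 0.425 RPKM in wild-type ES cells, the second from 1 read, and at 1.02, 1.61 and 2.59 RPKM in mutant ES cells. The day 4 values were 1.10, 0.720 and 0.497 RPKM for wild type against 1.47, 1.71 and 2.06 for mutant, and the day 8 values 0.993, 0.789 and 0.786 RPKM against 0.793, 0.999 and 0.965. The groups were apart in ES cells and at day 4 and overlapped at day 8. Over all genes the groups did not overlap for 13% in ES cells, 9.24% at day 4 and 15.9% at day 8. The log2 differences were 1.18 ± 0.20, 0.64 ± 0.20 and 0.05 ± 0.20, and the ratios of means 9.18, 2.26 and 1.07. In wild type the level at day 4 was above that in ES cells in every library, where groups did not overlap for 24.4% of all genes. Mutant ES cells (1.74 ± 0.793 RPKM, SD, n = 3) were near the mutant day 4 level (1.75 ± 0.296).

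With GSK343 the ES cell difference was smaller in RPKM. A930004D18Rik was at 0.124 and 0.120 RPKM in DMSO ES cells and at 0.462 and 0.384 RPKM in GSK343 ES cells. At day 4 it was at 1.76 and 2.23 RPKM in DMSO and at 1.75 and 2.61 RPKM in GSK343, which overlap, and at day 8 at 1.12 and 1.14 RPKM in DMSO and at 2.10 and 1.72 RPKM in GSK343. The log2 differences were 0.34 ± 0.16, 0.08 ± 0.16 and 0.44 ± 0.16. In DMSO the mean went from 0.122 RPKM in ES cells to 1.99 at day 4 and 1.13 at day 8. The log2 fold of A930004D18Rik from ES cells to day 4, as deposited by the authors, was 3.23 in DMSO and 2.13 in GSK343. It was 1.59 in wild type and 0.0085 in mutant. The same libraries were treated as part of the choice of this gene, so these folds are given without their p-values.

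The protein-coding genes under the same H3K27me3 peak, Mllt10 and Skida1, were tested, as they were no part of the choice. The lncRNA gene Gm17762, also under it, did not pass the filter in the wild-type and mutant libraries. It was at 0, 0 and 0.0532 RPKM in wild-type and at 0.223, 0.379 and 0.468 RPKM in mutant ES cells. Mllt10 was at 5.09, 5.13 and 3.93 RPKM in wild-type ES cells and at 11.2, 9.50 and 10.7 RPKM in mutant ES cells, with no overlap. It rose by a log2 difference of 1.01 ± 0.17 (adjusted p = 0.0410, 1 of 13 calls, 0.0917% of 14180 genes). That call was lost when any 1 of the 6 libraries was left out (adjusted p = 0.0838 to 0.202), when only these groups were fitted (0.337), and with totals without Rn45s (0.0750). For Skida1 the wild-type ES cells were at 0.0477, 0 and 0.112 RPKM and the mutant ones at 0.489, 0.743 and 0.911, again with no overlap. The difference of 0.70 ± 0.26 did not pass (adjusted p = 0.654 by limma). Mutant and wild-type ES cells did not overlap for 13% of all genes. From wild-type ES cells to day 4, Skida1 rose by 1.42 ± 0.26 (adjusted p = 0.00459) and Mllt10 by 0.84 ± 0.17 (adjusted p = 0.00900), in a comparison where 8.67% of genes were called (1230, or 2276 with a replicate block) and 24.4% did not overlap. With only those 2 groups in the fit the adjusted p was 0.0636 for Skida1 and 0.112 for Mllt10, and without wild type day 4 library 1 it was 0.0643 for Mllt10.

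Skida1 was also the gene whose pattern over the 41 libraries was most like that of A930004D18Rik (Pearson r = 0.71 among 12978 genes, each table centred on its own mean). Within tables r was 0.90 in the DMSO and GSK343 libraries, 0.52 in wild type and mutant and 0.69 in the replated ones. By Spearman rank correlation Skida1 was number 23 and Sned1 number 1. Neither Skida1 nor Mllt10 passed the test for GSK343 against DMSO at any stage, and Skida1 was lower in GSK343 at day 4 (log2 difference -0.52, adjusted p = 0.315), where the difference of A930004D18Rik was 0.08.

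In ES cells and at day 4 Platr10 had the highest RPKM of the 3 genes in every group. It was at 34.5, 31.9 and 45.7 RPKM in wild-type ES cells and at 38.5, 32.2 and 44.7 RPKM in mutant ES cells. The day 4 values were 57.3, 50.03 and 84.05 RPKM for wild type against 29.5, 61.7 and 74.7 for mutant. The groups overlapped at both stages, with log2 differences of 0.04 (95% interval -1.71 to 1.80, adjusted p = 0.999 by limma) and -0.27 (-2.03 to 1.49, adjusted p = 1). At day 4, 0.0494% of genes were called in this comparison (7, or 26 with the replicate block). At day 8 the wild-type libraries were at 0.396, 0.581 and 29.6 RPKM of Platr10 and the mutant ones at 8.46, 28.2 and 20.1. Wild type library 3 was above all 3 mutant libraries and the other two were below them. The difference of 2.14 (0.39 to 3.90) did not pass (adjusted p = 0.228, against 1.51% of genes called). Without wild type day 8 library 3 it was 3.60, with adjusted p = 0.000492, and over all single libraries left out the adjusted p ran up to 0.799. That the mutant difference at day 8 exceeded that at day 4 did not pass either (2.41 ± 1.17, adjusted p = 0.999).

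The wild-type library 3 of day 8 also held more RNA of pluripotency genes. The mean log2(RPKM + 1) of 14 naive pluripotency genes (Nanog, Esrrb, Klf2 and others) was 3.18 there and 1.27 and 1.34 in the other two libraries, against 3.71, 4.54 and 4.15 in the mutant. Wild type library 3 was also the highest of its group at day 4, with a naive mean of 4.03 against 1.91 and 1.78. In wild-type ES cells library 3 was the lowest, at 4.68 against 5.45 and 5.55. In bulk RNA, fewer cells of a type and less RNA per cell cannot be told apart. Pou5f1 ran from 27.8 to 222 RPKM among the wild-type day 8 libraries. The part of these genes in the Platr10 values was not tested.

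With GSK343, Platr10 stood apart at day 8. It was at 35.06 and 29.1 RPKM in DMSO ES cells and at 30.6 and 28.9 RPKM in GSK343 ES cells, and at day 4 at 67.4 and 75.8 RPKM in DMSO and at 47.5 and 67.4 RPKM in GSK343. Neither difference passed, at -0.10 (95% interval -0.48 to 0.27, adjusted p = 1) and -0.33 (-0.71 to 0.04, adjusted p = 0.566). In ES cells no gene of 14016 was called by limma (669 had an unadjusted p under 0.05, and voom on recovered reads also called 0), and at day 4 0.628% were. At day 8 it was at 1.54 and 1.71 RPKM in DMSO and at 50.3 and 51.6 RPKM in GSK343, a ratio of means of 31.4 and a log2 difference of 4.31 ± 0.17, which is the value that chose it. The background of that comparison was high, with 31.6% of genes called.

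Between day 4 and day 8 Platr10 fell in wild type by 3.96 on the log2 scale (SE 0.83, adjusted p = 0.00564), from 63.8 ± 17.9 to 10.2 ± 16.8 RPKM (SD, n = 3). In that comparison 20.7% of genes were called (2942, or 4902 with the replicate block) and 35.6% did not overlap. Every day 8 library was below every day 4 library. With only those 2 groups in the fit the adjusted p was 0.0780, and without wild type day 8 library 3 the difference was -5.41. In DMSO the mean went from 71.6 to 1.62 RPKM, 44.1 times lower, and in GSK343 from 57.4 to 50.95 RPKM. In the mutant it went from 55.3 to 18.9 RPKM. From wild-type ES cells to day 4 the means were 37.4 and 63.8 RPKM with no overlap, and the difference of 0.74 did not pass (adjusted p = 0.667 by limma). Between those 2 stages 8.67% of genes were called and 24.4% did not overlap. Among lncRNA genes Platr10 was number 11 of 499 by mean RPKM in DMSO at day 4, 209 in DMSO at day 8 and 20 in GSK343 at day 8.

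**Figure D3:**
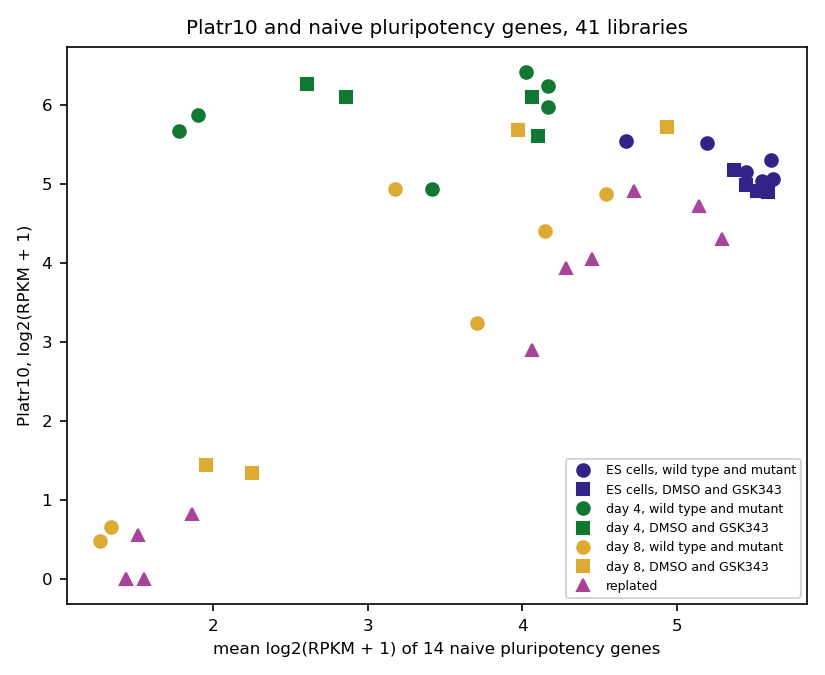
Platr10 against the mean of 14 naive pluripotency genes, both as log2(RPKM + 1), in each of 41 libraries, with colour for stage and shape for table. The day 4 libraries keep high Platr10 over a wide range of the marker mean, and wild type day 8 library 3 lies at 4.94 for Platr10 and 3.18 for the markers.

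In the plot of Platr10 against the naive genes, the 2 quantities moved apart at day 4. Naive gene means were 2.61 and 2.86 in the DMSO day 4 libraries against 5.37 and 5.52 in DMSO ES cells, while Platr10 was higher at day 4. The genes most like Platr10 over the 41 libraries were L1td1, an RNA-binding protein of ES cells (r = 0.97), Enpp3 (0.96), Pdzd4 (0.96), Lefty1, an inhibitor of Nodal signalling (0.95), and Abcc4 (0.95), with Pou5f1 at 0.92. By Spearman rank correlation Pdzd4 was number 6, Enpp3 40, Lefty1 72, Abcc4 74 and L1td1 102, so that none of the 5 was among the first 5. L1td1 was at 7.66 RPKM in DMSO and 144 in GSK343 at day 8, and Lefty1 at 1.69 and 45.2 RPKM. For 1700030C10Rik they were Zfp532 (0.88), Dnmt3l, a cofactor of the DNA methyltransferases (0.87), Exoc3l (0.86), Rimbp3 (0.84) and Crocc2 (0.83), at Spearman ranks 1, 2, 3, 4 and 31. Dnmt3l was at 18.4 RPKM in wild-type and 89.4 in mutant ES cells, and at 1.32 RPKM in DMSO and 70.8 in GSK343 at day 8. The members were less like each other, with r = 0.64 for 1700030C10Rik and Platr10, 0.55 for 1700030C10Rik and A930004D18Rik and 0.19 for A930004D18Rik and Platr10. These correlations share libraries, depth and stage and are descriptions.

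Other Platr genes, a list of 10 besides Platr10, moved in the same direction at day 8 in GSK343. Of the 10 tested 9 rose and 0 fell, with a median log2 difference of 1.77 against 0.0013 over all genes. Of all 14016 genes tested 31.6% were called in this comparison, 2193 of them higher. Platr7 went from 0.133 to 7.01 RPKM (2.76 ± 0.29, adjusted p = 7.70e-05), Platr22 from 0.492 to 6.91 RPKM (2.40 ± 0.21, adjusted p = 2.15e-05) and Platr4 from 0.864 to 5.18 RPKM (1.73 ± 0.25, adjusted p = 0.000617). Platr20 went from 1.52 to 6.66 RPKM (1.62 ± 0.25, adjusted p = 0.000766). All 9 kept their call in the 12 alternative fits run. Platr8 did not pass (0.42, adjusted p = 0.0943). In the mutant at day 8 none of 9 passed by limma, with a median of 1.06 and 5 at an unadjusted p under 0.05. Of all 14180 genes tested there, 1.51% were called and 2035 had an unadjusted p under 0.05. At day 4 in GSK343 none of 10 passed, with a median of 0.54 and 5 at an unadjusted p under 0.05. Of all 14016 genes tested there, 0.628% were called and 1448 had an unadjusted p under 0.05. From wild type day 4 to day 8 Platr22 fell (-1.78, adjusted p = 0.0156 by limma), 1 of 9, where 20.7% of all genes were called. This call was lost without wild type day 8 library 1 or 2 and with only those groups in the fit (adjusted p = 0.0886 to 0.116).

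Of 446 RefSeq lncRNA genes tested at day 8 in GSK343, 75 rose and 58 fell (median -0.05), beside 31.6% of all genes called, 2193 higher and 2241 lower. Among 38 other named lncRNA genes 5 rose and 7 fell, with Lncenc1, a transcript of naive ES cells, higher by 3.69 and H19, an imprinted growth regulator, Airn, the antisense transcript of Igf2r, and Hotairm1, of the Hoxa cluster, at log2 differences of -3.78, -2.49 and -2.51, all with adjusted p from 6.79e-07 to 0.000210. In the same comparison 12 of 14 naive pluripotency genes rose and 7 of 8 cardiac muscle genes, 8 of 12 fibroblast genes, 6 of 9 endoderm genes and 7 of 8 blood and endothelium genes fell. Of 6 neural genes 3 rose and 0 fell (median 0.72), and of 10 germline genes 8 rose and 0 fell (median 1.88). These shares stand beside the 31.6% of all genes called. Summed naive RPKM was 51.2 to 69.0 in DMSO and 365 to 719 in GSK343, and summed cardiac RPKM 119.997 to 128 and 12.9 to 25.3, summed fibroblast RPKM 87.1 to 211 and 7.57 to 17.9, and summed neural RPKM 17.6 to 18.2 and 70.8 to 82.8, with no gene of these lists at 0 in all libraries of a group. The part of these marker genes in the Platr10 value was not tested.

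The protein-coding neighbour of Platr10, Serpini1, was at 0.307 and 0.359 RPKM in DMSO and at 5.60 and 3.31 RPKM in GSK343 at day 8. It rose by 2.00 ± 0.24 (adjusted p = 0.000180) and kept this call in the 12 alternative fits run. Its wild-type levels from day 4 to day 8 were 3.28, 2.296 and 10.3 RPKM and then 0.257, 0.0755 and 3.30 RPKM, a difference of -1.59 that did not pass (adjusted p = 0.0650).

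Replating gave comparisons that were not named as part of the choice. Embryoid bodies formed in DMSO and replated in GSK343 had no read of 1700030C10Rik or of Platr10 in any of 3 libraries of 2.52 to 5.36 M reads. In DMSO then DMSO, 1700030C10Rik was at 2.40, 0.139 and 0.460 RPKM, in GSK343 then DMSO at 1.64, 2.94 and 4.07 RPKM and in GSK343 then GSK343 at 1.02 and 9.93 RPKM. Platr10 was at 15.5, 0.465 and 0.769 RPKM in DMSO then DMSO, at 29.1, 25.2 and 14.3 RPKM in GSK343 then DMSO and at 6.42 and 18.7 RPKM in GSK343 then GSK343. Cells first differentiated in GSK343 thus held both RNAs in all 5 libraries, and library 1 of DMSO then DMSO lay within their range. Against a floor of 3 reads over the group, 1700030C10Rik was at least 12.5-fold and Platr10 at least 59.4-fold lower in DMSO then GSK343 than in GSK343 then DMSO. Against DMSO then DMSO these bounds were 4.35-fold and 14.5-fold, and against GSK343 then GSK343 23.8-fold and 32.7-fold. Some of these bounds depended strongly on 1 library. Without library 1 of DMSO then DMSO they were 1.30-fold for 1700030C10Rik and 1.605-fold for Platr10, from 6 and 8 reads. Without library 2 of GSK343 then GSK343 they were 4.45-fold and 16.7-fold, and without its library 1 they were 43.2-fold and 48.7-fold. Against GSK343 then DMSO they ran from 9.96-fold to 15.2-fold and from 51.3-fold to 70.6-fold with any 1 of its libraries left out. Leaving out libraries here was a choice made after seeing the data.

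**Figure D4:**
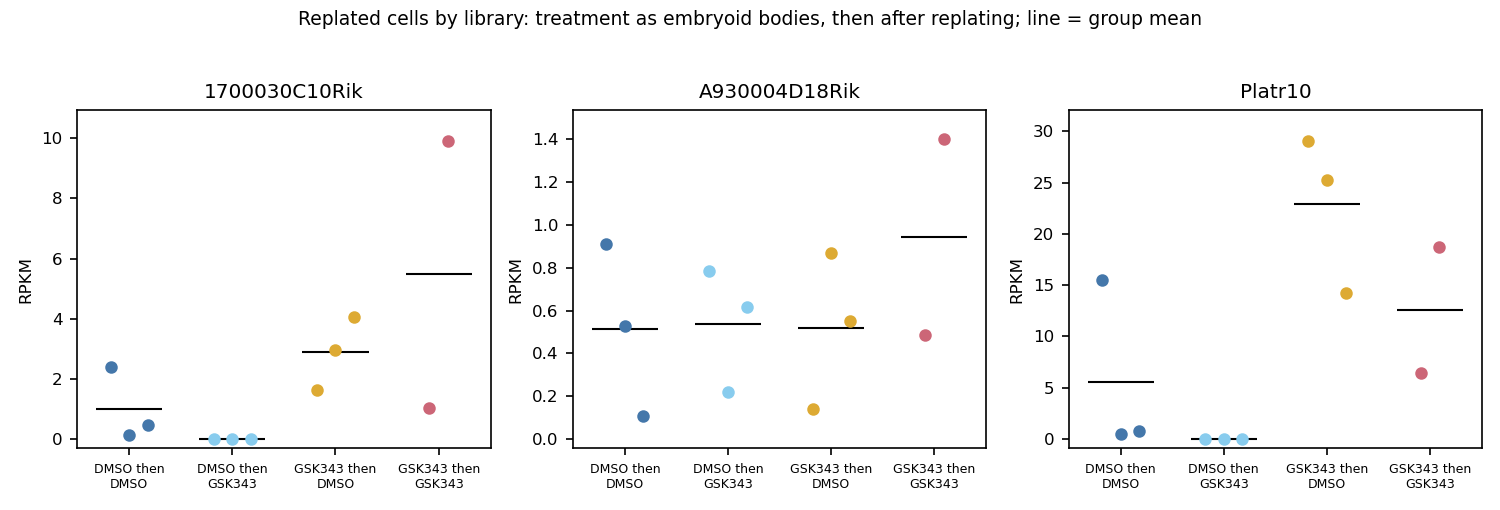
RPKM of the 3 genes in each replated library (points) with the group mean (line), by treatment as embryoid bodies and then after replating. 1700030C10Rik and Platr10 are at 0 in the 3 DMSO then GSK343 libraries, and A930004D18Rik overlaps between all groups.

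None of these differences passed by limma over the 14367 genes tested, and neither did that of any other gene (0% in each of the 4 comparisons). At an unadjusted p under 0.05 there were 328 genes for GSK343 only after replating, 3385 for GSK343 only before it, 196 for GSK343 kept against withdrawn and 2633 for GSK343 before replating in cells replated in GSK343. Across the alternatives other than leaving out a library, the counts called ran up to 0, 996, 1 and 105. GSK343 before replating gave Platr10 a difference of 2.71 (95% interval 1.09 to 4.33, adjusted p = 0.169) in cells replated in DMSO and of 3.60 (1.79 to 5.41, adjusted p = 0.115) in cells replated in GSK343. For 1700030C10Rik these were 1.07 (-0.13 to 2.27, adjusted p = 0.248) and 2.23 (0.89 to 3.57, adjusted p = 0.129). In the second comparison groups did not overlap for either gene, as for 32.1% of all genes.

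GSK343 only after replating gave -0.83 (-2.03 to 0.37) for 1700030C10Rik and -1.81 (-3.43 to -0.19) for Platr10, both with adjusted p = 0.885, where the median of all genes was -0.23 and groups did not overlap for 7.84% of genes, these 2 included. GSK343 kept against withdrawn gave 0.33 and -0.92, both with adjusted p = 1, and their groups overlapped, as did those of GSK343 only before replating (9.7% and 34.3% of genes did not). Whether the drug after replating acted differently by the first treatment was not resolved (differences of 1.16 ± 0.83 and 0.88 ± 1.12, adjusted p = 1 each, with 187 genes at an unadjusted p under 0.05). In the authors' deposited table, Platr10 differed by a log2 fold of 2.01 between DMSO then DMSO and GSK343 then DMSO (adjusted p = 0.0233) and by 6.99 between DMSO then GSK343 and GSK343 then GSK343 (adjusted p = 3.80e-08). In the authors' deposited table the same changes of 1700030C10Rik were 1.44 (adjusted p = 0.119) and 5.80 (adjusted p = 4.58e-07).

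Leaving out single libraries changed some of these calls. Without library 1 of DMSO then DMSO the Platr10 difference for GSK343 only before replating was 3.83 (adjusted p = 0.00139). Without library 1 of GSK343 then GSK343, which leaves 1 library assumed to vary like the other groups, the difference in cells replated in GSK343 was 3.45 for 1700030C10Rik (adjusted p = 0.0144) and 4.301 for Platr10 (adjusted p = 0.0240). Without library 2 of GSK343 then GSK343 the same differences were 1.02 and 2.89 (adjusted p = 0.925 each). For Platr10 with GSK343 only before replating, the adjusted p was 0.159 to 0.484 when any library but library 1 of DMSO then DMSO was left out. In cells replated in GSK343 the Platr10 difference also passed with only those 2 groups in the fit (adjusted p = 0.0319). Library 1 of DMSO then DMSO had a naive pluripotency mean of 4.46, against 1.51 and 1.86 in the other libraries of its group, 1.44 to 1.55 in DMSO then GSK343 and 4.07 to 5.29 in the 5 libraries started in GSK343. Pou5f1 was at 104 RPKM or less in DMSO then DMSO, at 1.10 to 1.81 in DMSO then GSK343 and at 74.7 to 224 in those 5. Summed RPKM of 12 fibroblast genes was 2341 to 7180 in DMSO then GSK343 and 749 to 4075 in the other groups, and the part of either marker list in these values was not tested.

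A930004D18Rik was detected in every replated library. It was at 0.909, 0.527 and 0.109 RPKM in DMSO then DMSO, at 0.783, 0.218 and 0.615 RPKM in DMSO then GSK343, at 0.141, 0.871 and 0.550 RPKM in GSK343 then DMSO and at 0.485 and 1.40 RPKM in GSK343 then GSK343. All groups overlapped, from 2 to 16 reads per library. The 4 differences were 0.04, 0.01, 0.34 and 0.31 with adjusted p from 0.629 to 1 by limma. The widest intervals, of the last 2, ran from -0.40 to 1.08 and from -0.43 to 1.06, and differences within them were not resolved.

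**Figure D5:**
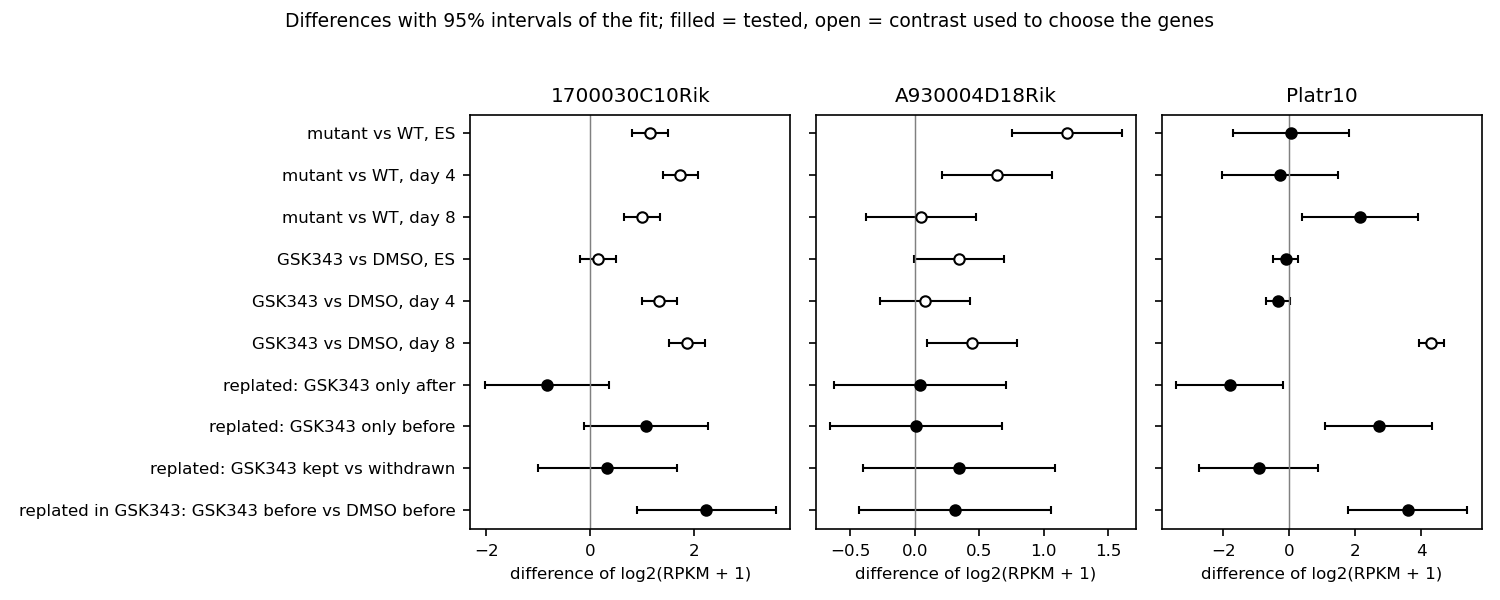
Differences of log2(RPKM + 1) with 95% intervals of the fit for the 3 genes over 10 comparisons. Points are filled where tested and open where the contrast was used, or treated as used, to choose the gene. Intervals of open points come after that choice and are no test. The intervals are widest in the replated cells, and for Platr10 in the wild-type and mutant comparisons.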

How the data were processed

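RNA-seq values came from 3 deposited tables of RPKM, per the file headers, for 41 libraries in 16 groups taken from the labels. The submitters' processing notes name STAR 2.5.3, featureCounts 1.6.1, edgeR, HOMER 4.10.3, Bowtie2 2.3.4.3 and the build mm10, without roles. The annotation and any strand setting were not given in the sources. The members and gene lists were chosen with earlier results of these data known.

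RPKM times gene length sums to 1 M per library in the DMSO and GSK343 and the replated tables, and to 0.811 to 2.23 M in the wild-type and mutant table. In the latter 138 genes have no known length, which can lower a sum but not raise it above 1 M. The sum of 2.23 M was in wild type day 4 library 2, with 57.9% of reads on Rn45s. Which totals scaled that table was not tested. Low RPKM rise in equal steps, from which reads were recovered: 100% of values under 200 reads came out within 0.02 of a whole number. Differences were tested with limma 3.58.1 in R 4.3.3 on log2(RPKM + 1), with a filter at RPKM 0.5 in at least the size of the smallest group (14016, 14180 and 14367 genes, with all 3 members), all groups of a table in 1 fit, and Benjamini-Hochberg adjustment over all genes at 0.05. The fit was tested on simulated data. RPKM were deposited by the authors, and the log2 scale was applied to the deposited values here. The authors' deposited table of comparisons gives log2 fold changes and adjusted p-values, which were quoted as theirs. Peak positions are the authors' deposited coordinates in 4 merged sets and 9 single-library SUZ12 sets, overlapped with gene spans widened by 1 kb. Positions and promoters are from RefSeq GRCm38.p6, matched by symbol for 15648 of 15924 genes. 0 per-sample columns were left aside.

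The text names the members, the measured genes nearest them, the 5 genes most correlated with each, and genes of the lists by smallest p. Ezh2 and Pou5f1 were named as checks. Replicate numbers pair the libraries by the rule that same-numbered libraries deviate together with every correlation over 0.1 in mutant against wild type at day 4 (0.637, 0.290 and 0.806) and in the wild-type and mutant time courses (0.151 to 0.736). They do not in ES cells (lowest 0.0494), at day 8 (-0.259) or in the replated groups, and DMSO and GSK343 have 2 numbers only. Alternatives were a pseudocount of 0.1, no filter, a filter at 1, fits of 2 groups, a replicate block, median scaling, totals without Rn45s, voom, and leaving out each library.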

Additional observations from a re-analysis of the deposited data

How the results depend on the processing

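Of the alternatives run for the tested differences of the 3 genes, 232 kept direction and side of the threshold, 14 reversed a difference that had not passed, 5 passed where the reported fit did not and 1 lost a call. Each reversal came from leaving out a library. With 1 library left out, Platr10 ran from -0.067 to 0.19 for mutant against wild type in ES cells, from -0.53 to 0.12 at day 4, from 1.37 to 3.60 at day 8, and from -0.23 to 0.029 for GSK343 in ES cells. In the order used above, the replated differences of A930004D18Rik ran from -0.17 to 0.22, from -0.20 to 0.20, from -0.0052 to 0.69 and from -0.033 to 0.66, and that of 1700030C10Rik for GSK343 kept against withdrawn from -0.89 to 1.54. GSK343 before replating in cells replated in GSK343 ran from 1.02 to 3.45 for 1700030C10Rik and from 2.89 to 4.301 for Platr10, and GSK343 only before replating from 2.08 to 3.83 for Platr10. With only the 2 groups in the fit, the fall of Platr10 from wild type day 4 to day 8 kept its size of -3.96 and lost its call (adjusted p = 0.0780), and Platr10 in cells replated in GSK343 kept its size of 3.60 and passed (adjusted p = 0.0319). The cause was not tested.

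With a replicate block no call of a member changed, and the adjusted p of the Platr10 fall in wild type was 0.00189. Counts called with the block were 41 against 13 for mutant ES cells, 26 against 7 at day 4, 616 against 214 at day 8, 2276 against 1230 and 4902 against 2942 for wild-type ES cells to day 4 and day 4 to day 8, and 270 against 88 for GSK343 at day 4. Over all settings other than leaving out a library the counts ran from 0 to 41, 1 to 26, 3 to 616, 217 to 2276, 975 to 4902 and 60 to 270, and for GSK343 at day 8 from 2704 to 6005 (4434 reported). With 1 library left out they ran from 4 to 15, 4 to 97, 16 to 1308, 357 to 1707, 828 to 4408 and 1 to 21, and to 2124 for GSK343 before replating in cells replated in GSK343, to 595 for GSK343 only before replating and to 16 for GSK343 in ES cells, each 0 as reported. Scaling to the median moved the share called higher from 51.0 to 40.8% for wild type day 4 to day 8 and totals without Rn45s to 62.2%, and from 49.4 to 39.4% for wild-type ES cells to day 4. Scaling to the median moved the median of all genes for GSK343 only after replating from -0.23 to 0.070. A pseudocount of 0.1 and voom gave larger differences for low values, such as 2.82 and 3.43 against 1.18 for A930004D18Rik in mutant ES cells. The other genes named were put through the same alternatives, a choice made after seeing the data. Low read counts limit 1700030C10Rik and A930004D18Rik, most in the replated libraries.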
